A study of Mus musculus with 2207 samples.

Results

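The cytosolic ribosomal protein genes encode the proteins of the small and the large subunit of the ribosome that translates nuclear-encoded mRNAs. Members were all genes in the deposited expression tables whose symbol was Rpl or Rps followed by a number and an optional a, l, x or y, together with Rplp0, Rplp1, Rplp2 and Rpsa, without -ps pseudogenes and without the S6 kinase genes. This gave 83 members of 52636 listed genes, 32 of the small subunit and 51 of the large subunit. The rule used only symbols and no measured value. 80 members were annotated as protein coding and 3 as pseudogenes (Rpl32l, Rps4l and Rpl6l), and 82 had a value above 0 in at least 1 nucleus.

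The study profiled 2207 single nuclei from the frontal cortex of 14-week-old C57BL/6 mice with RamDA-seq, a full-length total RNA method primed at random positions, in a mouse model of Kleefstra syndrome that lacks 1 functional copy of Ehmt1, the gene of the histone methyltransferase GLP. Tamoxifen had been given to all mice in 2 doses of 100 mg/kg, per the labels at 3 weeks of age and per the methods with 1 week between them. In 96-well plates, WT (Ehmt1+/+) and het (Ehmt1delta/+) were compared, with 730 nuclei in all. In 384-well plates, with 1477 nuclei in all, there were WT (Ehmt1+/+ with an Ehmt1 iTg allele but no CamKII-CreER), het (Ehmt1delta/+ with iTg but no CamKII-CreER), iTg (Ehmt1+/+ with iTg and CamKII-CreER) and het iTg (Ehmt1delta/+ with iTg and CamKII-CreER). The iTg allele supplies GLP after Cre recombination, and CamKII-CreER acts in forebrain neurons, so the glia of these pools were not its target. Each pool held nuclei of 3 mice, nuclei were not assigned to mice, and the pool was therefore the unit of replication. The submitters labelled 1664 nuclei as neurons, 397 as oligodendrocytes and the others as microglia.

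Ribosomal protein mRNAs are among the most abundant and most uniformly expressed messages of animal cells, because the subunits need their proteins in near-equal numbers. Their transcription starts in a pyrimidine-rich sequence, so that the mRNAs open with a terminal oligopyrimidine (TOP) tract through which mTOR signalling and Larp1 control their translation. The mRNA is mostly cytoplasmic, and a nucleus holds mainly newly made and not yet exported transcripts. Ribosomal protein genes have also been copied many times by reverse transcription, and these processed copies lie throughout the genome, often inside introns of unrelated genes.

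RefSeq promoter windows of 300 bases (250 before to 50 after the start, GRCm38.p6) were found for 61 members, with 73 windows in all. A pyrimidine tract, here a run of at least 5 C or T that opens with C within 10 bases of the start, was in 41 of the 73 windows (56.2%), against 30.7% of all 32851 windows. The letters CGGAAG on either strand, a core of ETS factor sites, were in 44 windows (60.3%) against 16.9% of all windows. AAGATGGC on either strand, part of the YY1 motif, was in 7 windows (9.59%) against 2.75%, and TATAA on either strand was in 18 windows (24.7%) against 24.9%. The 30 bases around 6 starts are shown because they hold a tract by this rule, in capitals, with Rps3 as a start whose window had none.
Rpl7a, chr2:26910792-26910821, plus strand: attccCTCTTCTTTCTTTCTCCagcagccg
Rpl35, chr2:39005117-39005146, minus strand: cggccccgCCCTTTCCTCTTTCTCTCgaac
Rps6, chr4:86857353-86857382, minus strand: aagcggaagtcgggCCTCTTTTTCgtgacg
Rps9, chr7:3704026-3704055, plus strand: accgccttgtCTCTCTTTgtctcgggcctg
Rpl18, chr7:45718056-45718085, plus strand: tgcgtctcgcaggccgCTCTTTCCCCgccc
Rps10, chr17:27635230-27635259, minus strand: gcgccgcgcacgCCCCTTCCTTTCCagcct
Rps3, chr7:99483695-99483724, minus strand: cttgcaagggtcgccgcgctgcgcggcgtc
The tract in Rpl7a covered 17 of its 30 bases and the tract in Rpl35 covered 18, whereas those of Rps9 and Rps6 covered 8 and 10.

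Rpl32l and Rps4l, the members with the lowest ratios of microglia to neurons, are copies that lie inside other genes. Rpl32l (chr10:20208490-20208888, plus strand, GENCODE M21 on GRCm38) lies inside Map7 on the same strand, and Rps4l (chr6:148354656-148355598, plus strand) lies inside Tmtc1 on the opposite strand. Rpl32l was 96.0% identical to the Rpl32 mRNA over 404 aligned positions, and 5.86% of its windows of 76 bases, the sequenced read length, matched Rpl32 exactly. Rps4l was 77.9% identical to Rps4x, and 0 of its 868 windows matched. The copy Rpl6l was 98.7% identical to Rpl6, and 425 of its 796 windows matched, so that many reads of this pair cannot be told apart. The first 90 coding bases show this difference in divergence, with differing bases in capitals.
Rpl32l: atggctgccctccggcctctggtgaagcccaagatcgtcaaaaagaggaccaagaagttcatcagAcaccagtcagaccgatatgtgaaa
Rpl32: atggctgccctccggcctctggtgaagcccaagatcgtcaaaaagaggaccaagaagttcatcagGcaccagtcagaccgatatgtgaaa
Rps4l: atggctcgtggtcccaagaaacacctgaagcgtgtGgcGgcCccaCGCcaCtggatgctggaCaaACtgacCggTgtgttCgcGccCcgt
Rps4x: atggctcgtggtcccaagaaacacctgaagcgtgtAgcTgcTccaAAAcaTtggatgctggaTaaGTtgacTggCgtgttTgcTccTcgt
The Rpl32 pair differed at 1 of these positions and the Rps4x pair at 15.

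Ehmt1, the targeted gene, was higher and not lower in the pools labelled het. In neurons its mean RPKM (reads scaled by the exonic length of the gene and by the reads assigned to genes, the unit of all levels below) was 18.7 in WT and 31.2 in het of the 96-well plates. It was 19.5 in WT, 31.7 in het, 20.7 in iTg and 33.9 in het iTg of the 384-well plates. It was also higher in het than in WT of the same format in microglia and oligodendrocytes. The value covers all exons of the gene, so it does not show whether part of the transcript was missing, and directions below are those of the pools as labelled. Defining markers fitted the cell type labels: Snap25 averaged 95.5 in neurons and 12.4 in microglia, Csf1r 880 in microglia and 1.37 in neurons, and Mobp 522 in oligodendrocytes and 0.740 in neurons. The astrocyte transporter gene Slc1a3 reached 20.2 in microglia and 10.2 in oligodendrocytes, while the mean of Aqp4 was 1.52 in microglia and lower in the others. Reads per nucleus, estimated from the steps of the RPKM values, had pool medians of 323273 to 397880 in neurons. Glia had 441701 to 510640 in 96-well but only 39940 to 54877 in 384-well pools, so single members in glia of the 384-well pools rest on few reads.

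Neuronal nuclei carried ribosomal protein RNA at an even and modest level. The 83 members summed to 389 ± 40.5 RPKM in neurons (SD, n = 6 pools; lowest 355.9, median 382, highest 465). In oligodendrocytes the sum was 422 ± 51.02 (lowest 382, median 410, highest 520) and in microglia 691 ± 106.2 (lowest 583, median 687, highest 879). Microglia and neurons did not overlap, and microglia exceeded the neurons of the same pool by 1.64 to 1.91 times in 6 of 6 pools. Oligodendrocytes exceeded neurons by 1.05 to 1.12 times in 6 of 6 pools, although the ranges of both overlapped across pools. This excess rested on 1 member, Rpl32l: without it the ratio of oligodendrocytes to neurons was 0.865 to 0.973, below 1 in 6 of 6 pools, while that of microglia to neurons was 1.66 to 1.95. The median number of members above 0 per nucleus was 54 to 70 in neurons and fell with depth in glia, from 42 to 67 in 96-well pools to 15 to 25 in 384-well pools.

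**Figure D1:**
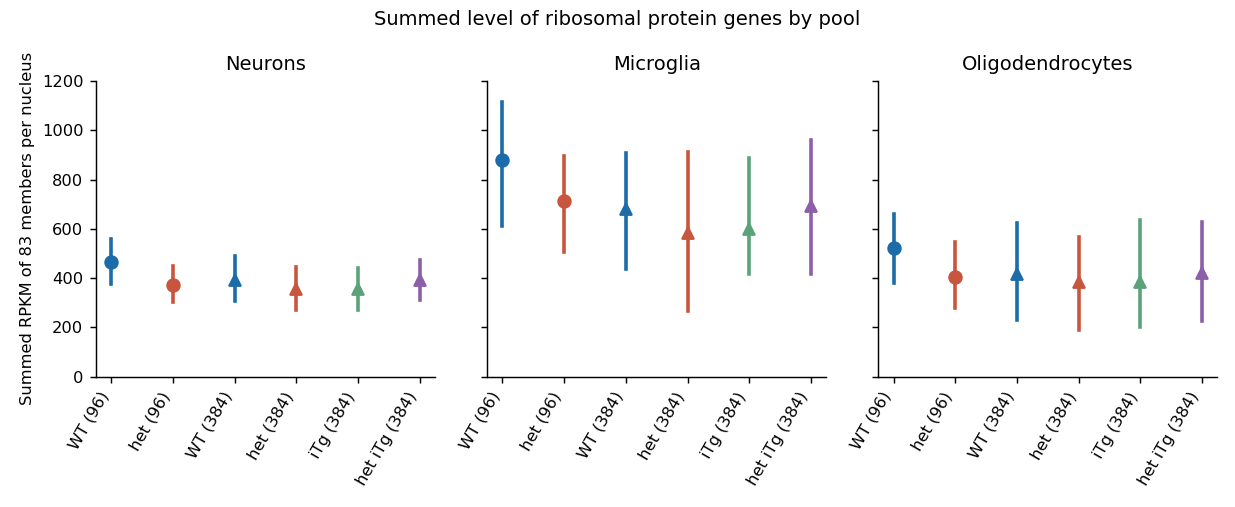
Mean over nuclei of the summed RPKM of 83 members (points) and the 10th to 90th percentile of nuclei (bars) for each of 6 pools, in 3 panels by cell type label; circles are 96-well and triangles 384-well pools, with WT blue, het red, iTg green and het iTg purple. The microglial pools, at 583 to 879, all lie above the neuronal pools, at 355.9 to 465, and WT of the 96-well plates is the highest pool in each panel.

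In neurons the median member had 3.96 RPKM, more than 71.6% of the 44477 genes with a value above 0. 69 members lay between 2 and 10, and the 10 highest made up 26.7% of the sum. Rpl10a, the protein of the L1 stalk, which helps tRNA leave the ribosome, was the highest at 18.5 ± 5.004 (SD, n = 6). Rpl10, which joins the large subunit late in assembly, ranged from 10.6 to 13.2, and Rps15, a protein of the small subunit head, from 6.89 to 13.8. Rpl41, Rpl36 and Rpl4 completed the 6 highest. Neighbours in the order could hardly be separated: in neurons only 2 of 82 neighbouring pairs did not overlap over the 6 pools (Rps27l above Rpl3l, and Rpl3l above Rpl10l), in microglia 0, and in oligodendrocytes 1 (Rpl32l above Rplp1).

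The paralogs Rpl3l, Rpl10l, Rpl39l and Rps27l were at the bottom in neurons, whereas Rps4l, the copy of Rps4x, ranked 12 with a mean of 6.86 RPKM. Rpl3l, the paralog of Rpl3 known from striated muscle, had 0.144 to 0.388 RPKM in neurons, where Rpl3 had 7.42 to 9.65. Over the 2207 nuclei of all labels, 77 had Rpl3l reads. Rpl10l, a paralog known from testis, was above 0 in 2 nuclei, whose values together made 1 read. Rpl39l, also known from testis, was listed at 0 in every nucleus. Rps27l ranged from 0.813 to 1.69 in neurons against 7.13 to 8.71 for Rps27. Rpl39 and Rpl36a, which are regular ribosomal proteins, were also low, at medians of 0.958 and 1.16.

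Members on a fixed list by role were spread over the order of levels in neurons, from Rpl41 at rank 4 to Rps19 at rank 74 of 83. Rps6, the S6 kinase substrate, had 2.38, 2.79 and 3.87 as lowest, median and highest pool. Rpl5 and Rpl11, which together bind Mdm2 when assembly fails, had medians of 3.56 and 2.58. Rps19, the gene most often mutated in Diamond-Blackfan anaemia, had a median of 1.91, and Rpsa, which also gives the laminin receptor, had 3.71. Rps27a, made as a fusion with ubiquitin, had 3.06 and Rpl38 had 3.81. The stalk proteins that recruit elongation factors had medians of 4.40 for Rplp0, 8.96 for Rplp1 and 5.76 for Rplp2.

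Microglia had a higher mean RPKM of ribosomal protein genes than neurons, in members of both subunits, but the members' median turned to -0.35 when log2(RPKM + 1) was averaged over nuclei. Of 80 tested members 25 were higher in microglia and 4 lower by limma at an adjusted p below 0.05, where 19.5% of all 24481 genes were higher and 44.9% lower. The median log2 ratio of the members was 0.43, against -0.84 for all tested genes. A gene was tested if any 1 label passed the filter, and some passed through neurons alone. Genes above 0 per nucleus had pool medians of 13140 to 16411 in neurons and 4571 to 10879 in microglia. The values of all genes are therefore not a like-for-like background for the members. 11 of 32 small subunit members and 14 of 48 large subunit members were higher. 24 members were higher in microglia in 6 of 6 pools, against 17.1% of all genes.

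Rps9, a small subunit protein that binds early to ribosomal RNA, had the largest increase. Its lowest, median and highest pools were 2.62, 2.74 and 4.76 in neurons and 9.06, 15.2 and 24.2 in microglia. The groups did not overlap, and the log2 ratio was 2.24 ± 0.25 (SE, adjusted p = 5.2e-06). Rps29, a short zinc-binding protein, went from 2.75, 3.94 and 5.48 in neurons to 10.04, 13.4 and 19.7 in microglia (log2 ratio 1.77 ± 0.26, adjusted p = 6.5e-05). Rplp1 of the stalk went from 5.74, 8.96 and 13.6 to 16.9, 31.7 and 43.4 (1.70 ± 0.23, adjusted p = 3.1e-05). Rpl18 went from 1.86, 2.46 and 3.00 to 6.01, 7.73 and 10.9 (1.69 ± 0.15, adjusted p = 6.5e-07). All 4 were without overlap between the groups, which adds no support, since they were picked as the largest ratios among the members called. Rplp0 rose by 1.45 ± 0.28, whereas the other stalk protein, Rplp2, had 2.37, 5.78 and 11.8 in microglia and overlapped with neurons.

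The 4 members that were lower in microglia were Rps4l, Rpl32l, Rps20 and Rps15a. Rps20, a protein of the small subunit head, had 1.95, 2.94 and 8.06 in neurons and 0.247, 1.496 and 7.87 in microglia, so the ranges overlapped (log2 ratio -1.07 ± 0.37, adjusted p = 0.023). Rps15a had 1.95, 3.23 and 7.17 against 0.446, 1.89 and 7.97 (-0.75 ± 0.29, adjusted p = 0.036), and its ratio was 0.14 in the 96-well pools alone. In neurons, too, both genes had higher levels in the 96-well than in the 384-well pools.

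**Figure D2:**
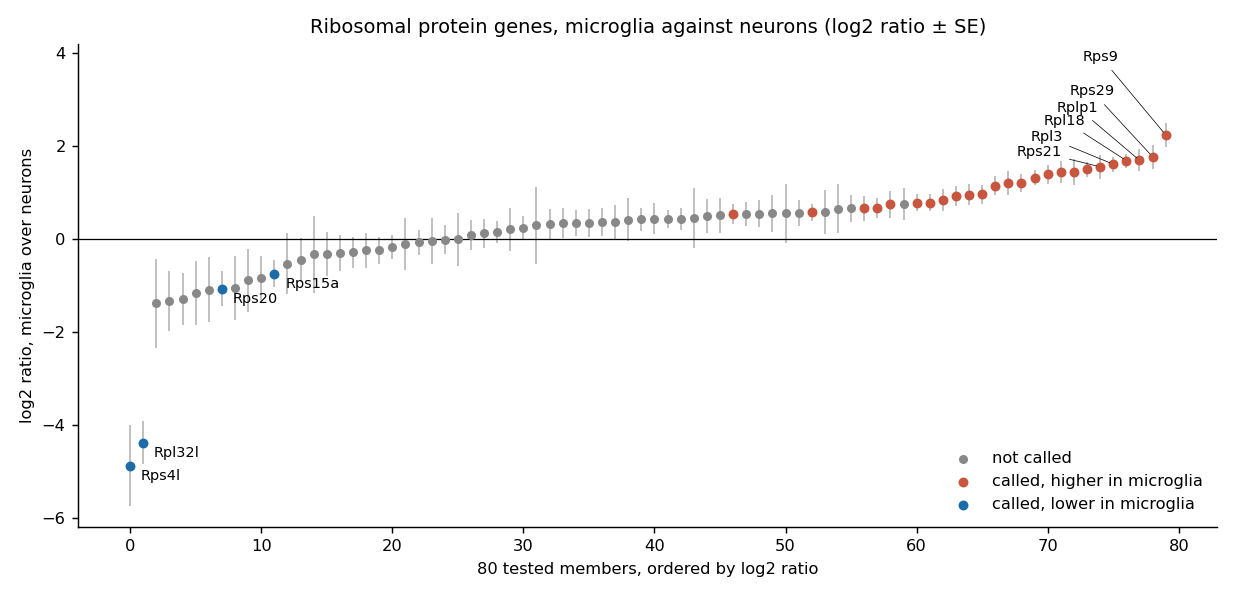
log2 ratio of microglia over neurons (points) with its SE (bars) for 80 tested members, ordered from the lowest to the highest; red members were called higher and blue ones lower in microglia at an adjusted p below 0.05, and grey ones were not called. 54 members lie above 0, Rps9 is the highest at 2.24, and Rps4l and Rpl32l stand apart at -4.88 and -4.39.

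The median microglial ratio was larger in the 96-well pools, although 0 members passed a test for this. Its direction varied with how nuclei were averaged. In the 96-well pools alone, where microglia had more reads than neurons, 37 members were higher and 1 lower, with a median log2 ratio of 0.78. In the 384-well pools alone 18 were higher and 7 lower, with a median of 0.20. Tested as an interaction, 0 members were called, and 9 of 80 had a lower ratio in the 384-well pools at an unadjusted p below 0.05, against 9.76% of all genes. The members' share was thus near the background. When log2(RPKM + 1) was averaged over nuclei in place of RPKM, the median turned to -0.35, with 4 members higher and 33 lower, and in the 96-well pools alone it was 0.30, with 27 higher and 6 lower. Microglia of the 384-well pools had 18 to 25 members above 0 per nucleus. Under median-ratio scaling, set by the genes above 0 in every pool and label and not by all tested genes, 19 were higher and 6 lower with a median of 0.18.

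Other genes of translation were called in both directions between microglia and neurons, where 19.5% of all genes were higher and 44.9% lower with a median of -0.84. The limit of these values of all genes, given above, holds here too. Of 9 tested genes with TOP mRNAs or ribosome-bound products 5 were higher in microglia and 0 lower, led by Fau, which encodes a further small subunit protein as a ubiquitin-like fusion (log2 ratio 2.38 ± 0.21). Rack1, a scaffold on the small subunit, rose by 0.74. Of 10 elongation factor genes 3 were higher and 2 lower, with Eef1a1, the carrier of aminoacyl-tRNA, at 1.66 ± 0.16 and Eef2, the translocase, at 0.68 ± 0.13. Of 31 initiation factor genes 8 were higher and 2 lower. Of the mitochondrial ribosomal protein genes 4 of 78 were higher and 25 lower, with a median log2 ratio of -0.57 that lay above that of all genes. Among genes of ribosome assembly 5 of 25 were higher and 6 lower, and among mTOR pathway genes 5 of 16 were higher and 5 lower. The -ps copies of ribosomal protein genes had 28 higher and 29 lower, with a median of -0.08.

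Some other RNA moved with the microglial label too. Mitochondrially encoded RNA summed to 3169 to 44973 RPKM in microglia and 429 to 2135 in neurons, with 20 of 21 tested genes higher in microglia. The nuclear-retained RNAs Malat1, Neat1, Meg3, Kcnq1ot1, Snhg11 and Miat had 5 of 6 lower in microglia. The 5 astrocyte markers summed to 9.44 to 41.6 in microglia and 1.59 to 2.87 in neurons. Most of the microglial sum was Slc1a3, with a mean of 20.2 in microglia and 0.352 in neurons. Aqp4 and Gfap also had higher means in microglia, whereas Aldh1l1 (0.744 against 1.46) and Gja1 (0.0165 against 0.0837) had lower ones. Gja1 was at or below 0.0961 in every microglial pool. The part of these in the members' difference was not tested.

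With RPKM averaged over nuclei, few members differed between oligodendrocytes and neurons. 3 members were higher and 9 lower, against 12.8% and 39.1% of all genes, and the median log2 ratio was -0.16 against -0.61 for all tested genes. The values of all genes again include genes that passed the filter through neurons alone. Oligodendrocytes had pool medians of 4586 to 9681 genes above 0 per nucleus. Rplp1 was higher, with 9.09, 14.0 and 18.3 in oligodendrocytes (log2 ratio 0.61 ± 0.23, adjusted p = 0.042), and so was Rpl18 (0.45 ± 0.15, adjusted p = 0.025), both by less than their excess in microglia. Both turned negative when log2(RPKM + 1) was averaged over nuclei: 1 member was then higher and 66 lower with a median of -0.73, and 37 were lower with a median of -0.53 in the 96-well pools alone. Rpl12, a protein at the base of the stalk, was lower, with 5.85, 6.09 and 6.80 in neurons and 1.23, 2.76 and 4.67 in oligodendrocytes, without overlap (-1.17 ± 0.26, adjusted p = 0.0019). Rpl10a was also lower (-0.82 ± 0.15), as were Rps20 (-1.25), Rpl17 (-0.96), Rpl15 (-0.86), Rps18 (-0.86), Rps15a (-0.76) and Rps2 (-0.59).

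Set against microglia, oligodendrocytes had 1 member higher and 31 lower, where 21.6% of all genes were higher and 21.7% lower. The median log2 ratio was -0.51 against 0.08 for all tested genes. Rpl10a ranged from 5.08 to 14.5 in oligodendrocytes and from 26.5 to 81.4 in microglia (log2 ratio -2.32 ± 0.15, adjusted p = 5.5e-08). Rps9 differed by -2.16 ± 0.25 and Rpl12 by -1.71 ± 0.26. Both labels had similar reads per nucleus within each plate format. Rpl3, which lies at the peptidyl transferase centre, had its lowest microglial pool, 19.2, above its highest pool in neurons, 9.65, and in oligodendrocytes, 10.3.

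Rpl32l was the 1 member higher in oligodendrocytes than in microglia, and it was also higher than in neurons. Its lowest, median and highest pools were 36.2, 56.4 and 90.6 in oligodendrocytes, 4.88, 5.22 and 8.27 in neurons, and 0, 0.247 and 1.39 in microglia. The 3 labels did not overlap, and oligodendrocytes exceeded neurons by a log2 ratio of 3.25 ± 0.46 (adjusted p = 5.8e-05) and microglia by 7.64 ± 0.46 (adjusted p = 2.3e-08). Map7, the microtubule-binding protein gene that contains it, had the same order, with 203.3 to 308.1 in oligodendrocytes, 20.4 to 22.9 in neurons and 0.365 to 2.42 in microglia. Rpl32 itself, its parent gene, had 3.26 to 5.75 in neurons and 0.893 to 10.6 in oligodendrocytes. Rpl32l was above 0 in 93.8% of the oligodendrocytes of the 96-well pools and 47.4% of those of the 384-well pools. Map7 reads were in every oligodendrocyte, with or without Rpl32l. In microglia of the 96-well pools it was above 0 in 15 of 68 nuclei, of which 3 had Map7 reads.

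Rps4l was mainly neuronal. It had 4.30, 7.09 and 9.06 in neurons, 0, 0 and 1.70 in microglia, and 0.0529, 0.762 and 5.74 in oligodendrocytes. Neurons exceeded microglia without overlap (log2 ratio of microglia over neurons -4.88 ± 0.87, adjusted p = 0.0003) and overlapped with oligodendrocytes through iTg of the 384-well plates alone, at 5.74 (-2.96 ± 0.87, adjusted p = 0.012). Rps4l entered these tests through neurons alone, the only label with values above 0 in 10% of nuclei in each plate format. Because Rps4l was 0 in microglia of every 384-well pool, the size of the microglial ratio depends on the added 0.1 RPKM. Tmtc1, a mannosyltransferase gene that contains it in the opposite orientation, had 13.4 to 15.3 in neurons, at most 0.598 in microglia and at most 1.21 in oligodendrocytes. Rps4l was above 0 in 51.9% of the neurons of the 96-well pools, every one of them with Tmtc1 reads, and in 642 neurons of the 384-well pools, 626 of them (97.5%) with Tmtc1 reads, where 93.1% and 90.6% of all neurons of these formats had Tmtc1 reads. Across neuronal nuclei the Spearman correlation of Rps4l with Tmtc1 was 0.44 in 518 nuclei of 96-well and 0.39 in 1146 nuclei of 384-well pools. That of Rpl32l with Map7 was 0.23 and 0.13 in the same nuclei, and 0.10 and 0.11 in oligodendrocytes. These are given without a test, since nuclei of a pool share library and depth. Rps4x, the parent gene, was not restricted in this way, with 2.77 to 5.13 in neurons and 1.71 to 10.2 in microglia. The counting did not use strand, so reads from a copy and from the gene around it cannot be told apart where they overlap.

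**Figure D3:**
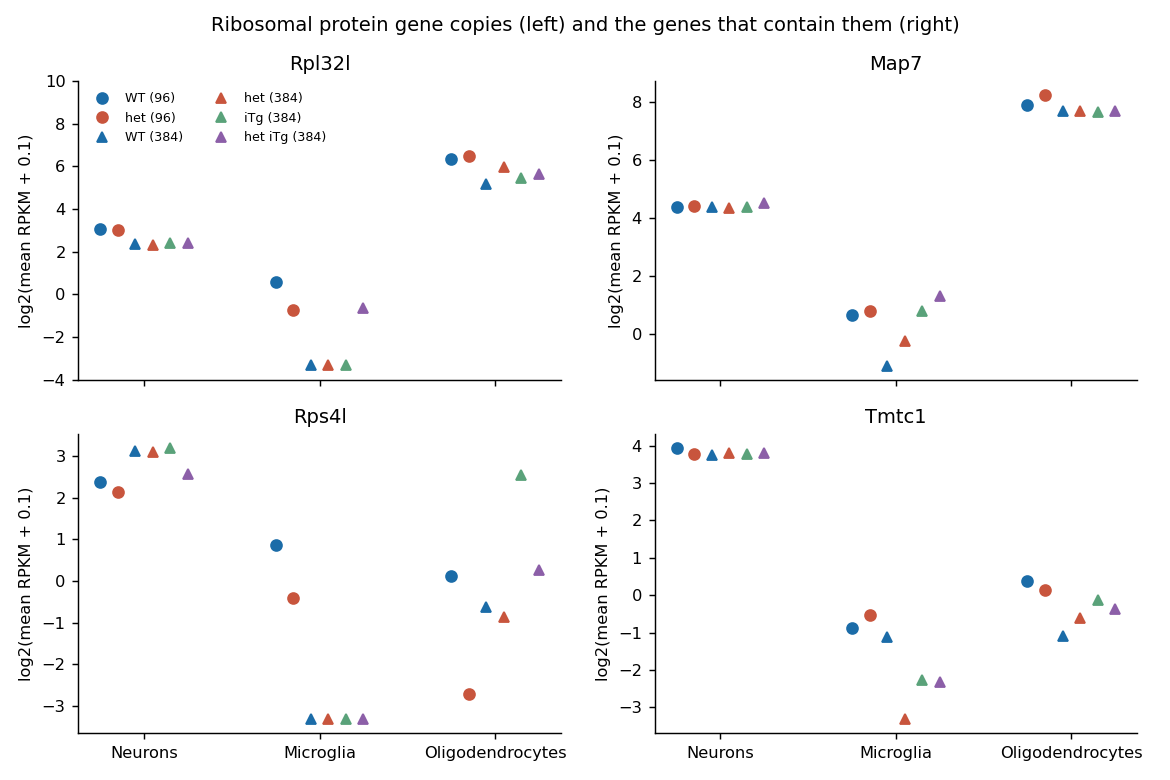
log2(mean RPKM + 0.1) of the copies Rpl32l and Rps4l (left panels) and of Map7 and Tmtc1, which contain them (right panels), by cell type label; each point is 1 of 6 pools, circles 96-well and triangles 384-well, and a value of 0 sits at the lowest position. Rpl32l and Map7 are highest in oligodendrocytes and lowest in microglia, and Rps4l and Tmtc1 are highest in neurons.

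Excitatory and inhibitory neurons, split by the larger of Slc17a7 and Gad1, differed by small amounts. The members' sum in inhibitory neurons was 1.01 to 1.12 times that of excitatory neurons of the same pool, above 1 in 6 of 6 pools. 7 members were higher and 2 lower in inhibitory neurons, against 22.2% and 20% of all genes, so the share of members called was below the background in both directions. Rpl11 had 2.06, 2.41 and 3.28 in excitatory and 2.90, 3.28 and 5.10 in inhibitory neurons (log2 ratio 0.55 ± 0.08, adjusted p = 0.0017) and was higher in 6 of 6 pools. Rps21, Rpl13a and Rpl8 rose by 0.38, 0.36 and 0.35, and Rps12, Rpsa and Rpl36 by 0.35, 0.28 and 0.27. Rpl32l was lower, with 4.95, 5.83 and 9.75 in excitatory and 2.27, 3.64 and 4.81 in inhibitory neurons (-0.87 ± 0.17, adjusted p = 0.0059), and so was Rps14 (-0.29 ± 0.08, adjusted p = 0.028). Without the pool as a block 1 member was higher and 1 lower.

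The comparison of het with WT asked whether loss of 1 Ehmt1 copy goes with a change in these genes. In neurons the members' sum was 465 in WT and 372 in het of the 96-well plates, and 394 in WT and 355.9 in het of the 384-well plates, ratios of 0.801 and 0.903. No member passed the test (0 of 80 by limma at an adjusted p below 0.05, as for all 23853 genes), and 18 were lower and 0 higher at an unadjusted p below 0.05, against 6.99% of all genes lower. 77 of 80 had a log2 ratio below 0, against 58.3% of all genes, and the median was -0.22 against -0.03. 63 were lower in het in both plate formats, against 35% of all genes. This fit had 4 pools and 1 residual degree of freedom, so its lack of calls says nothing about stability.

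Rpl35, a protein near the exit tunnel, was lower in het by similar amounts in both formats. It had 2.73 in WT and 1.79 in het of the 96-well plates and 2.43 and 1.49 in the 384-well plates, both het values below both WT values (log2 ratio -0.63 ± 0.10, unadjusted p = 0.0053, adjusted p = 0.46). Rpl39, a short protein of the exit tunnel, had 2.26 and 1.52, then 0.849 and 0.590, which differed more between formats than between genotypes. Rps3 had 3.99 and 3.07, then 2.57 and 1.80, and Rps6 had 3.87 and 2.90, then 3.08 and 2.38. Rplp1 had the widest gap in 1 format, with 13.6 in WT and 5.74 in het of the 96-well plates, but 9.79 and 8.13 in the 384-well plates. Rps16 and Rpl37a went the other way, with 2.89 in WT and 3.50 in het for Rps16 in 96-well plates and 3.01 and 3.05 in 384-well plates, and 4.26 and 4.53, then 2.49 and 2.53 for Rpl37a. Both subunits took part, with 30 of 32 small and 47 of 48 large subunit members below 0.

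Microglia and oligodendrocytes had the same direction with wider spread. In microglia the ratio of the sums was 0.810 in 96-well and 0.856 in 384-well plates, 0 of 75 members were called by limma and 0 had an unadjusted p below 0.05. 50 of 75 members were below 0 against 51% of all genes, and 35 of 75 were lower in both formats against 25.7%. In oligodendrocytes the ratios were 0.780 and 0.921 (0.718 and 0.844 without Rpl32l), 0 of 71 members were called, and 7 were lower at an unadjusted p below 0.05 against 3.04% of all genes. 55 of 71 were below 0 against 53.1% of all genes, and 36 of 71 were lower in both formats against 28.1%. Rpl4, which lines the exit tunnel, had 19.2 in WT and 8.58 in het oligodendrocytes, then 9.89 and 2.38. Rps16 had 3.59 and 1.46, then 1.56 and 0.493, and Rpl32 had 9.38 and 4.21, then 10.6 and 0.893. In microglia Rpl24 had 6.05 and 2.36, then 7.46 and 0, and Rpl8 had 15.1 and 7.29, then 28.3 and 9.13. The 384-well values rest on 16 WT and 19 het microglia. Over all microglia of that format Rpl24 was above 0 in 10.3% and Rpl8 in 11.5%. Some members went up in both formats, such as Rpl35a in microglia with 6.73 and 10.6, then 0.865 and 1.23, and Rpl13a in oligodendrocytes with 3.84 and 5.70, then 5.73 and 8.15.

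The nucleus names carry a code before the well, and 3 codes held both genotypes of the 96-well pools; the ratio of het to WT sums within them was 0.711 to 0.881 in neurons, 0.662 to 1.036 in microglia and 0.673 to 0.923 in oligodendrocytes. In the 384-well pools WT had a code of its own, so code and genotype cannot be told apart there. Other lists were lower in het neurons as well: 10 of 10 elongation factor genes were below 0 with a median of -0.23, 80.6% of the ribosomal protein -ps copies with -0.19, 48 of 54 respiratory chain genes with -0.18 and 62 of 78 mitochondrial ribosomal protein genes with -0.09. Initiation factors had 24 of 31 below 0 and a median of -0.07, assembly factors 16 of 25 and -0.03, and mTOR pathway genes 8 of 16. The sum of mitochondrially encoded RNA did not keep 1 direction, with values of 1513 in WT and 429 in het of the 96-well plates and 758 and 1719 in the 384-well plates. The neuron markers Snap25, Syt1 and Rbfox3 summed to 244.8 in WT and 221.8 in het neurons of the 96-well plates and to 148.05 and 148.26 in those of the 384-well plates. In microglia they summed to 60.3 in WT and 13.8 in het of the 96-well plates, and 5.91 and 4.31 in the 384-well plates, where mitochondrially encoded RNA went from 12951 to 3169 and from 12929 to 44973. In oligodendrocytes they summed to 50.7 in WT and 12.2 in het of the 96-well plates, and 6.43 and 2.56 in the 384-well plates. The part of these in the members' difference was not tested.

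The pools with CamKII-CreER did not follow the same pattern. Each genotype was 1 pool, so these are values without a test. In neurons the members summed to 357.01 in iTg and 392 in het iTg, a ratio of 1.10, where het over WT had been 0.903 in the same plate format. The ratio was 1.16 in microglia and 1.10 in oligodendrocytes. Of the 63 members lower in het neurons in both formats 43 (68.3%) were higher in het iTg than in iTg, and 60.3% of all genes lower in both formats were so too, which is 21.1% of all genes tested. Higher in het iTg than in iTg were 56 of 80 members and 67.2% of all genes in neurons, so the members' share was near the background. The median log2 ratio of this pair in neurons was 0.21 for all genes and 0.17 for the members. Set against WT of the 384-well plates, the neuronal sum was 0.906 times in iTg and 0.995 times in het iTg. The neuronal sums of iTg and het iTg lay between those of het, 355.9, and WT, 394.

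**Figure D4:**
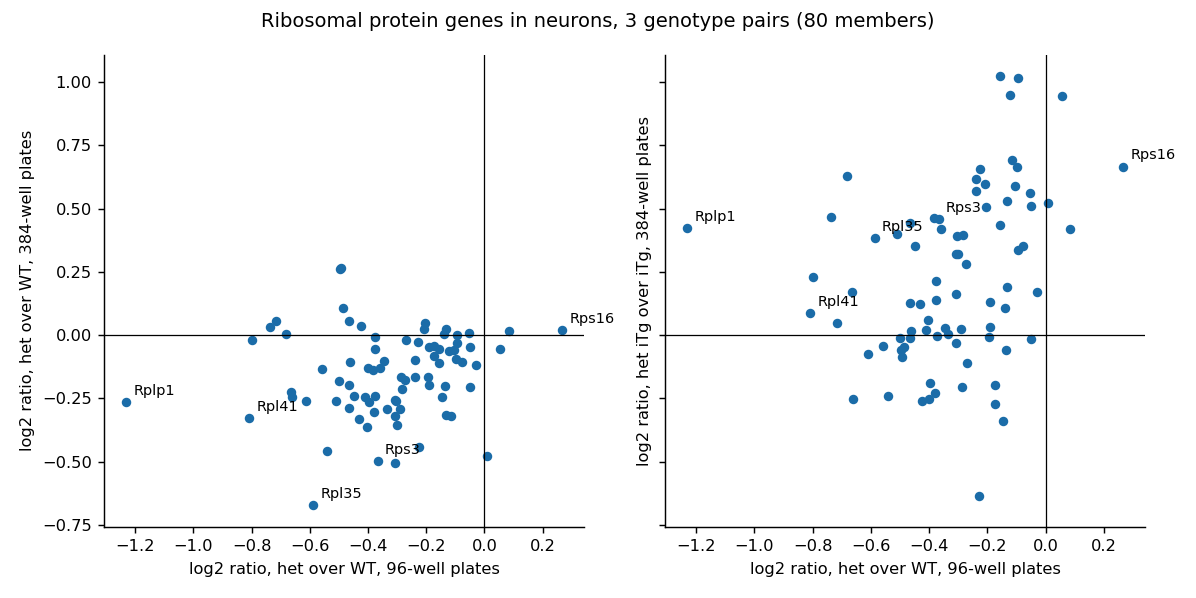
log2 ratios in neurons for 80 members, 1 point each: het over WT of the 96-well plates (horizontal) against het over WT of the 384-well plates (left, vertical) and het iTg over iTg (right, vertical). 76 members lie left of 0; 65 lie below 0 in the left panel and 24 in the right panel.

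Some members differed more between plate formats than between genotypes. In neurons of WT and het, 8 members were higher and 30 lower in 384-well pools, against 20.8% and 41.4% of all genes, and the median log2 ratio was -0.19 against -0.26 for all genes. Rpl30 had 8.62 and 7.73 in the 96-well pools and 1.53 and 1.47 in the 384-well pools (log2 ratio -2.37 ± 0.10, adjusted p = 0.0052). Rps20 had 7.76 and 8.06 against 2.03 and 1.95 (-1.94 ± 0.11), Rpl35a 3.38 and 3.15 against 1.10 and 1.02 (-1.53 ± 0.10), and Rps15a 7.17 and 6.71 against 2.40 and 2.35 (-1.51 ± 0.10). Rpl10a rose, from 13.03 and 11.5 to 22.2 and 21.01 (0.81 ± 0.10), as did Rpl36 (0.74 ± 0.10). None of these overlapped between formats, which adds no support, since they were picked for large ratios of 1 sign in both genotypes. The pools iTg and het iTg, which were not in the fit, had 1.39 and 2.93 for Rpl30. Under median-ratio scaling 17 members were higher and 15 lower, and the median turned to 0.14.

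Longer members had the lower values in 384-well pools. The 28 members with an exonic length of at least 2000 bases had a median log2 ratio of -0.55, and the 40 shorter ones -0.15, and the Spearman correlation with length was -0.35 across 68 members, which share libraries and are not replicates. The members that moved most were long: Rpl30 had 3020, Rps20 4080 and Rps15a 6270 exonic bases in the annotation, which includes retained introns. Format coincided with the code in the nucleus names and with the iTg allele, which every mouse of the 384-well plates carried, and these cannot be told apart. In microglia and oligodendrocytes 0 members were called by limma for plate format, with 12 and 18 at an unadjusted p below 0.05, and Rpl30 had log2 ratios of -3.50 and -2.94.

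**Figure D5:**
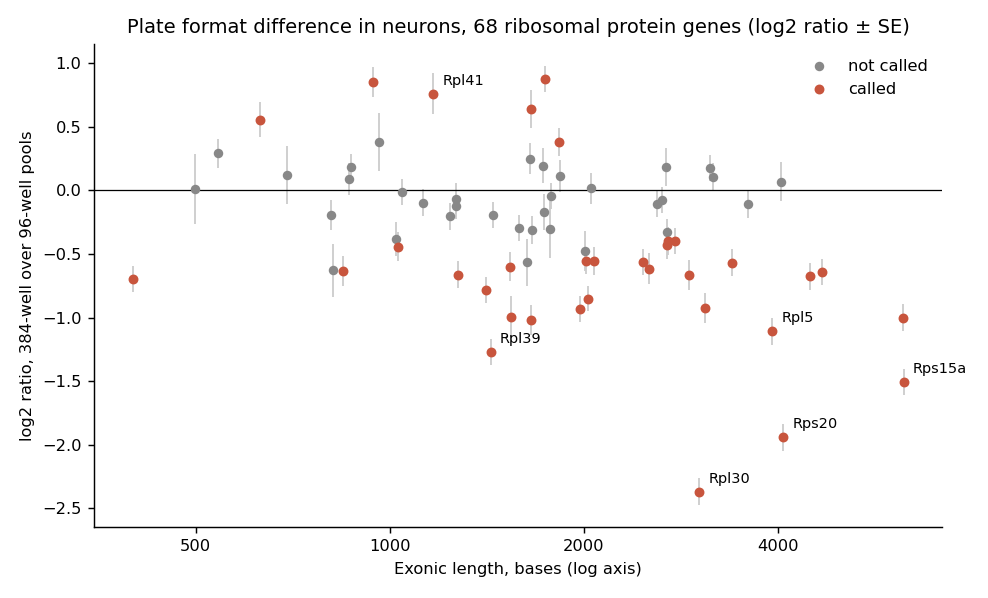
log2 ratio of 384-well over 96-well neuronal pools (points, with SE) against exonic length in bases on a log axis, for 68 tested members with a matching gene version; red members were called at an adjusted p below 0.05 and grey ones were not. The lowest points, Rpl30 at -2.37, Rps20 at -1.94 and Rps15a at -1.51, all lie at 3020 bases or more.

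Many values of these genes stood for fractions of a read. The methods name featureCounts with default settings, which counts whole reads, and the source of the fractions was not tested. A median of 56.2% of a member's values above 0 were more than 0.01 reads from a whole number (69 members with enough values and a known length), from 0% for Rpl3l to 92.2% for Rpl6l. 41 of the 69 had such values in at least 50% of nuclei above 0. Rps6 had 82.1%, Rpl10 88.9% and Rpsa 83.4%, whereas Rps21 had 9.48% and Rps27l 2.92%. Members with at least 50% had a median log2 ratio of -0.23 in het against WT neurons, and those under 50% had -0.24. In microglia against neurons the same classes had medians of 0.43 and -0.01, with 10 of 41 and 14 of 27 members below 0. 29 members also held 56 small nucleolar RNA genes, and 23 shared exonic bases with another gene. Rpl35, which lies inside Wdr38 on the opposite strand, shared 66.2% of its exonic bases, the highest share, so its value cannot be assigned to this gene alone.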

How the data were processed

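Nuclei were sorted by DAPI into 96-well or 384-well plates and sequenced by RamDA-seq. Per the methods and the submitters' processing notes, reads were trimmed, aligned by HISAT2 2.0.4 (mm10) and assigned to genes by featureCounts (Subread 1.5.0), and the authors removed poor nuclei. They deposited RPKM values, 1 column per nucleus. On average 27.3% of values above 0 were fractions of a read, so whole reads were not recovered and no count test was run. Cell type labels are the submitters'.

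RPKM was averaged over the nuclei of each pool and label, and log2(mean RPKM + 0.1) was tested with limma 3.58.1 (R 4.3.3) across every gene with a value above 0 in 10% or more of a group's nuclei in each plate format, with Benjamini-Hochberg adjustment (threshold 0.05, two-sided). Cell types and neuron classes were compared with the pool as a block, since the labels of a pool share its mice, and het with WT with plate format as a block. Nuclei were not tied to mice, so p-values measure only the spread between pools. In simulated data the cell type fit recovered 0%, 24%, 56% and 76% of genes changed by 0.5, 1, 2 and 3 on the log2 scale. The excitatory and inhibitory fit recovered 24%, 66%, 92% and 98%. The het fit in neurons recovered 0% at every size, both for het against WT and for plate format. In the data, however, the same fit called 20.8% of genes higher and 41.4% lower for plate format. The simulated 0% therefore does not show what this fit could call.

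Positions and lengths are from GENCODE M21, while the authors used an earlier GENCODE release on the same assembly; 71 members matched by gene version and 12 by identifier only, and read shares were taken from the former. The members and lists were chosen with earlier results of these data known. Members named were the 6 highest and 6 lowest in neurons, the 4 largest changes each way per comparison, paralog pairs and a fixed list by role; other members are named in counts of called ones, and 3 of the members or related genes that the rule would name are not reported here. Alternatives were other pseudocounts, filters, scalings, averages, weights and blocks, each plate format and leaving out each pool. Of 1219 names made of code and well, 641 occurred in several pools, and 0 of these had identical values.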

Additional observations from a re-analysis of the deposited data

Results flagged for a closer look

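The summed level of the ribosomal protein genes was lower in het than in WT in both plate formats but higher in het iTg than in iTg, in each cell type label. The ratio of het iTg to iTg was 1.10 in neurons, 1.16 in microglia and 1.10 in oligodendrocytes, where the ratios of het to WT were 0.801 and 0.903, 0.810 and 0.856, and 0.780 and 0.921. Most genes tested were also higher in this pair: in neurons 67.2% of all genes were higher in het iTg, with a median log2 ratio of 0.21 against 0.17 for the members. The shares of all genes were 59% in microglia and 59.1% in oligodendrocytes, with medians of 0.26 and 0.16 against 0.52 and 0.19 for the members. The ratio of the members' sums took opposite directions between pairs of pools under the same contrast. In neurons the median gene did too, with 56.4% of all genes below 0 in het over WT of the 384-well plates. The difference was not tested, since each genotype with CamKII-CreER was 1 pool.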

How the results depend on the processing

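Averaging log2(RPKM + 1) over nuclei changed both comparisons with neurons most, but left the counts of oligodendrocytes against microglia at 1 and 31. Microglia against neurons then had 4 members higher and 33 lower with a median of -0.35, and oligodendrocytes against neurons 1 and 66, with Rplp1 at -0.68 and Rpl18 at -0.27; in the 96-well pools alone (chosen after seeing the data) 37 were lower against neurons, and against microglia 2 were higher and 50 lower. The causes were not tested. Without Rpl32l (chosen after seeing the data) the mean log2 ratio of the members' sums in oligodendrocytes over neurons turned from 0.11 to -0.090, because this member alone carried the excess. Without the replicate block, that is the pool, 2 members were lower in microglia, 1 was higher and 4 lower in oligodendrocytes than in neurons, and 1 was higher and 1 lower in inhibitory neurons; the block moved no other count of calls by more than 1.5 times. Microglia against neurons had 1 member lower in 96-well pools alone, where Rps15a was 0.14, and 7 in 384-well pools alone. Each format alone has fewer samples than the main fit. Oligodendrocytes had 1 member higher than in neurons in 384-well pools alone; against microglia 2 were higher with a pseudocount of 0.01, under median-ratio scaling and in 384-well pools alone, and 18 were lower in the last. Leaving out 1 pool gave 21 to 31 higher and 2 to 5 lower in microglia than in neurons (2 without iTg of the 384-well plates), 1 to 2 higher in oligodendrocytes than in neurons, 1 to 2 higher than in microglia (2 without het of the 96-well plates), and 4 to 8 higher and 1 to 3 lower in inhibitory neurons. In inhibitory neurons 4 were lower under median-ratio scaling, 8 when logs were averaged, and 2 were higher when a class had reads of only 1 of both genes. For het against WT, the fit of all 6 pools gave medians of -0.10 in neurons, -0.048 in microglia and -0.17 in oligodendrocytes, and 1 format alone gave -0.30 to -0.14, -0.34 to -0.21 and -0.42 to -0.17. Members that changed sign were Rpl37a in neurons (-0.043 with logs averaged, -0.054 weighted by reads), Rps20 (-0.031) and Rps18 (-0.080 and, weighted, -0.20) in microglia, Rpl27 in microglia (0.18 in all 6 pools) and Rpl28 in oligodendrocytes (-0.045). For plate format, no filter gave 4 higher and 14 lower, logs averaged 5 higher, and median-ratio scaling 17 and 15 with a median of 0.14. The shallow glia of the 384-well pools and the 1 residual degree of freedom of the het fits limit what could be called.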
